A study of Mus musculus with 10 samples.

Results

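The 9 genes Emb, Renbp, H2-M1, Dynap, Cpa6, Nxf3, Ppef1, Mid2 and Gm773 were described line by line in 10 clonal lines of 3T3-L1, a mouse preadipocyte line whose cells become fat-storing adipocytes when given insulin, dexamethasone and IBMX. They were chosen from these arrays for signals that differed sharply between lines, and they are 9 of 19937 genes with a probe set naming that gene alone. The 5 High lines (clones 3F4, 4D2, 4E3, 5C4 and 5D4) had stored much triglyceride when tested, and the 5 Low lines (clones 1E7, 2D7, 2F1, 4D11 and 4H4) had stored little. No line carried an introduced allele or agent: RNA was taken from untreated, proliferating cells in serum, before the cocktail. Each line was grown from 1 colony and was read on 1 Affymetrix whole-transcript array, so the spread between lines holds clonal and technical variation together. Values are log2 intensities after RMA, the authors' background correction, normalization and probe summary, and a difference of 1 is a 2-fold change of signal.

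The genes share no pathway. Emb encodes embigin, a membrane glycoprotein of the immunoglobulin superfamily that escorts a monocarboxylate transporter to the cell surface. Renbp encodes the renin-binding protein, which interconverts N-acetylated amino sugars as an epimerase. H2-M1 is a non-classical major histocompatibility class I gene of the group known from vomeronasal sensory neurons. Dynap encodes a membrane protein named, from human work, for binding dynactin. Cpa6 encodes a carboxypeptidase of the extracellular matrix, Nxf3 a member of the nuclear RNA export factor family, Ppef1 a phosphatase with calcium-binding EF hands, and Mid2 a microtubule-associated ubiquitin ligase related to Mid1. Gm773 is a predicted protein-coding gene, and no role is given for it here. As background, cells grown from a single founder can pass on the on or off state of a gene through divisions, by DNA methylation and chromatin, and they also pass on any gain or loss of DNA.

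The arrays were alike as a whole, and that of High line 5C4 was the least like the others. The array median lay between 7.74 and 7.84, and the 25th percentile, used here as the lower limit for a detected gene, lay between 6.38 and 6.47. Both were highest in 5C4. The mean correlation of an array with the others was 0.987 for 5C4 and between 0.991 and 0.993 for the rest. Of 12 preadipocyte and fibroblast markers 11 were measured, and their mean level was 11.15 to 11.36 in High lines and 11.06 to 11.25 in Low lines. The preadipocyte marker Dlk1 lay between 13.76 and 13.94 in all lines. Markers of this list were not all bright: Cd34 lay between 6.41 and 7.40, Ebf2 between 7.48 and 8.99, and Zfp423 between 7.91 and 8.23. The other measured markers of the list lay at 10.31 or above in all lines. The 6 marker lists of other cell types had mean levels of 6.58 to 7.72 in High lines and 6.54 to 7.61 in Low lines, and of 5 measured adipocyte markers Adipoq (at most 6.08) and Lep (at most 6.42) were not above the limit on any array, while Plin1 (7.86 to 8.36), Retn (7.56 to 7.86) and Cidec (7.36 to 7.67) were above it on all.

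A line was called high or low for a gene by the widest gap between neighbouring values when the 10 lines were sorted. The median gap was 0.15 and the median range 0.45 over the 16863 genes that exceeded the limit on at least 1 array, against a median gap of 1.56 and a median range of 4.06 for the 9 genes. All 9 exceeded the limit on at least 5 arrays, and all 9 had a gap of at least 1, where 76 genes, or 0.451% of those tested, did. This size is what the genes were chosen for, and it is given as a description. Among the 9, Renbp had the widest gap of all genes tested and Emb the second widest, while Nxf3 had the widest range and Emb the second widest. With values under the limit set to it, Renbp and Nxf3 kept these ranks, and Emb ranked 34 by gap and 11 by range.

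**Figure D1:**
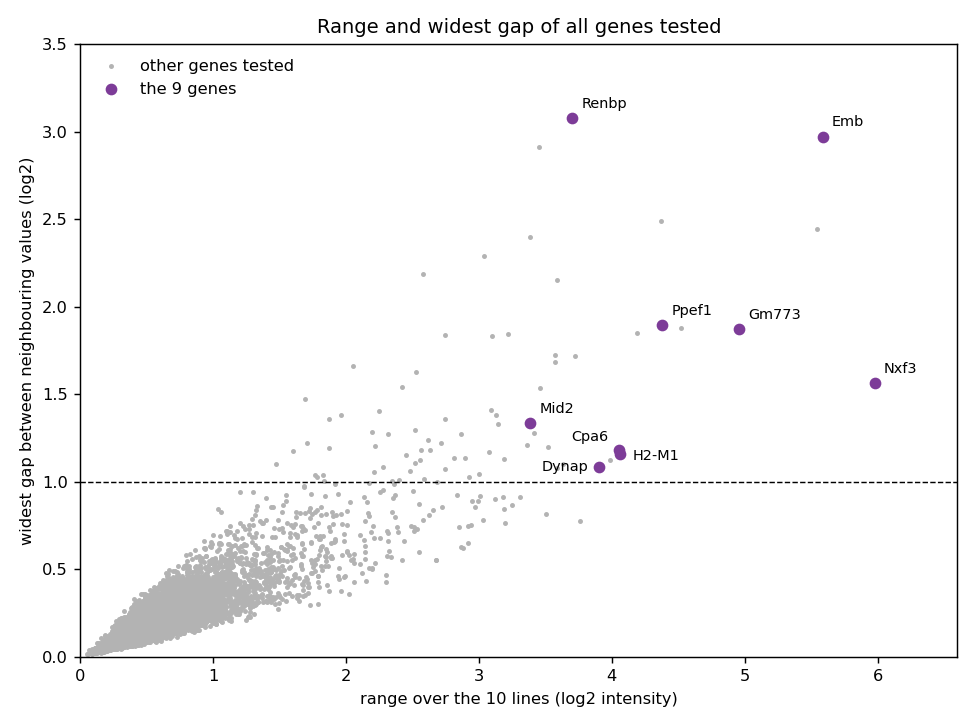
Range over the 10 lines (x axis, log2 intensity) against the widest gap between neighbouring sorted values (y axis, log2) for all 16863 genes tested. Grey points are single genes, purple points the 9 genes, and the dashed line marks a gap of 1. Renbp and Emb have gaps of 3.08 and 2.97, and Dynap, at 1.08, lies nearest to the line.

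The label of genes switched in single clones held for part of the set. A single line stood on one side of the gap for 5 of the 9 genes (Emb, Renbp, Dynap, Cpa6 and Nxf3), a pattern that 57 genes, or 0.338% of those tested, had with a gap of at least 1. The gap covered 83.1% of the range for Renbp and 53.2% for Emb. It covered 29.2% for Cpa6, 27.8% for Dynap and 26.1% for Nxf3, below the median of 32.0% over all genes tested, so the other lines of these 3 genes were themselves spread widely. For the other 4 genes 2 lines (H2-M1 and Gm773) or 4 lines (Ppef1 and Mid2) stood on the smaller side. With 1 array per line, a step between lines next to each other in the order cannot be tested.

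**Figure D2:**
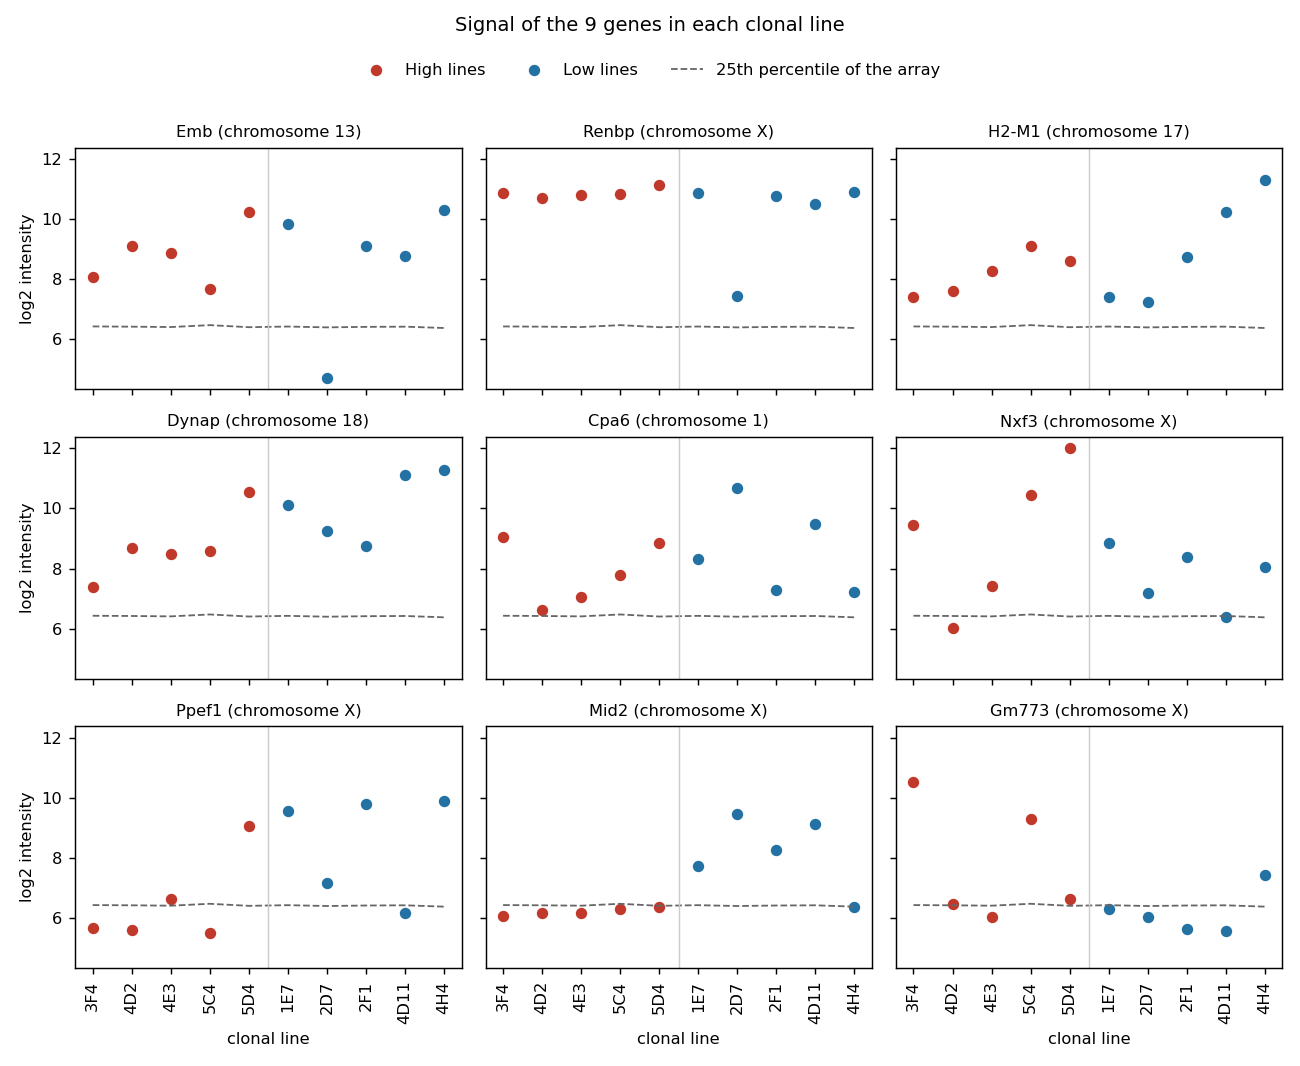
Log2 intensity (y axis) of each of the 9 genes in each clonal line (x axis), High lines in red on the left and Low lines in blue on the right, 1 point per array. The dashed line is the 25th percentile of each array. Emb and Renbp are low in Low line 2D7 alone, and Mid2 reaches 7.71 or more in 4 Low lines alone.

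Emb and Renbp were low in the same single line, 2D7 of the Low class. Emb (Entrez gene 13723, probe set 10407327, chromosome 13) measured 8.08, 9.09, 8.89, 7.67 and 10.25 in High lines 3F4, 4D2, 4E3, 5C4 and 5D4, against 9.83, 4.70, 9.11, 8.79 and 10.29 in Low lines 1E7, 2D7, 2F1, 4D11 and 4H4. The value in 2D7 was dimmer than all but 7.19% of the probe sets of that array and lay 2.97 below the next line, High line 5C4, which is a 7.84-fold step as measured. With 2D7 set to the detection limit it was at least 2.42-fold, a gap of 1.28. Even among the other 9 lines Emb ran from 7.67 to 10.29, and High and Low lines were mixed along that span. Renbp (Entrez gene 19703, probe set 10605181, chromosome X) measured 10.88, 10.72, 10.79, 10.84 and 11.14 in the High lines, against 10.86, 7.44, 10.77, 10.51 and 10.90 in the Low lines, in the same order of clones. Its 9 bright lines lay within 10.51 and 11.14, and 2D7 lay 3.08, or 8.44-fold, below them. At 7.44 the signal of Renbp in 2D7 was still brighter than 44.3% of probe sets, so Emb lay below the limit in this line and Renbp did not. Without 2D7 the widest gap was 0.71 for Emb and 0.24 for Renbp. In RNA from a whole culture, fewer expressing cells and less RNA per cell cannot be told apart.

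The start regions of Emb and Renbp are shown because these genes had the same pattern over the 10 lines. They come from RefSeq on GRCm38.p6, each 300 bases long, 250 before and 50 after an annotated start, read 5′ to 3′ on the gene's strand, with each CG pair, the site of DNA methylation in mammals, in capitals. The Emb region is chr13:117220323-117220622 on the + strand, and the Renbp region is chrX:73930801-73931100 on the - strand.
Emb: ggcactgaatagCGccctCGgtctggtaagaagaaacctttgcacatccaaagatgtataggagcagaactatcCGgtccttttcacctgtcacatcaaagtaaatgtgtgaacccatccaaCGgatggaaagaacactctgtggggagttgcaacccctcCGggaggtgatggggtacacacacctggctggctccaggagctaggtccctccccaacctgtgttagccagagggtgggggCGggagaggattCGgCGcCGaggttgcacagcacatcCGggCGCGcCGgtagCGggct
Renbp: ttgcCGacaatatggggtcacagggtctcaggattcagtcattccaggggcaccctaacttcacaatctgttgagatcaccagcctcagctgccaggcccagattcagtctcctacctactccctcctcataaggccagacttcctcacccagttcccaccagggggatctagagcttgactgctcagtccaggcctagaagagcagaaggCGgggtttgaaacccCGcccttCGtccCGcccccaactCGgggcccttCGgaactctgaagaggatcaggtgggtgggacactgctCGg
The Emb region holds 14 CG pairs and the Renbp region 8, where the median over 32851 start regions was 7 and the quartiles were 3 and 20. At least 14 pairs occurred in 36.3% of all regions and at least 8 in 48.7%. The letters GGGCGG, searched on both strands, occurred 1 time in the Emb region and 2 times in the Renbp region, and 35.7% of all regions held them. Each such match itself includes a CG pair. TATAAA and CCAAT, also searched on both strands, were in neither of these windows, where 13.6% and 37.4% of all regions held them. DNA methylation was not measured.

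Other genes shared the pattern of Emb and Renbp. Counting genes with a gap of at least 1 that put all 10 lines on the same sides, 10 genes matched Emb, Renbp among them, and 10 matched Renbp, Emb among them. None of the matches of Emb lies on chromosome 13, and 1 of those of Renbp, Hs6st2, lies on chromosome X. Of 9 genes with the opposite pattern, high in 2D7 alone, 1 (Mboat1) lies on chromosome 13. The widest gap after those of Emb and Renbp was that of Grb10, an imprinted adaptor gene that restrains insulin receptor signalling. Grb10 measured 6.75 in 2D7, but it was also lower in High lines 5C4 (9.19) and 5D4 (9.53) than in the remaining lines (11.79 to 12.29). Crip1, which encodes a small LIM-domain protein, measured 7.92 in 2D7 and 9.77 to 12.11 in the others. Line 2D7 was the lone line below a gap of at least 1 for 11 genes and above one for 9 genes, more in total than any of the other 9 lines.

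Cpa6 was highest in line 2D7, the line that lacked the Emb signal, but its values were graded. It (Entrez gene 329093, probe set 10353102, chromosome 1) measured 9.03, 6.61, 7.04, 7.80 and 8.85 in the High lines, against 8.32, 10.67, 7.30, 9.49 and 7.21 in Low lines 1E7, 2D7, 2F1, 4D11 and 4H4. The step from 2D7 down to the next line, 4D11, was 1.18, or 2.27-fold, and the remaining lines filled the span from 6.61 to 9.49 with both classes mixed. Without 2D7 the widest gap of Cpa6 was 0.53. The genes with the widest gaps among the 8 others that were high in 2D7 alone were Slc38a1, a glutamine transporter gene, with 10.13 in 2D7 and 6.55 to 8.40 elsewhere, Pcdhb9, a protocadherin gene, with 8.34 and 5.81 to 6.71, and Cnrip1, which encodes a protein that binds the cannabinoid receptor, with 10.12 and 7.03 to 8.71.

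Nxf3 was the gene with the widest range and was highest in High line 5D4. It (Entrez gene 245610, probe set 10606837, chromosome X) measured 9.45, 6.03, 7.43, 10.45 and 12.01 in High lines 3F4, 4D2, 4E3, 5C4 and 5D4, against 8.86, 7.18, 8.38, 6.39 and 8.06 in the Low lines. The range of 5.98 is a 63.1-fold difference as measured between 5D4 and 4D2, both High lines. Lines 4D2 and 4D11 lay below the detection limit, and against the limit the difference was at least 48.1-fold. The Low lines lay between, and so did 3 of the 5 High lines, in steps no wider than 1.56. By the gap rule 5D4 stood alone, and by the midpoint of the range 3F4 and 5C4 joined it. Without 5D4 the widest gap of Nxf3 was 0.995. The 6 other genes that were high in 5D4 alone with a gap of at least 1 included Ildr2, with 9.93 in 5D4 and 7.35 to 7.74 in the other lines, the immune-regulatory surface protein gene Cd200, with 8.41 and 6.35 to 6.75, and the interferon-induced gene Rtp4, with 9.32 and 6.90 to 7.78.

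Dynap was lowest in High line 3F4 and graded in the rest. It (Entrez gene 75577, probe set 10459633, chromosome 18) measured 7.39, 8.68, 8.47, 8.57 and 10.53 in the High lines, against 10.12, 9.24, 8.76, 11.11 and 11.29 in the Low lines. The High lines other than 5D4 lay below every Low line, while 5D4 exceeded 3 of the 5 Low lines. Line 3F4 stood 1.08, or 2.12-fold, below the next line, and by the midpoint of the range the high lines were 5D4, 1E7, 4D11 and 4H4.

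H2-M1 was highest in Low lines 4D11 and 4H4, and its chromosomal neighbour H2-M9 showed nearly the same order of lines. H2-M1 (Entrez gene 224756, probe set 10450790, chromosome 17) measured 7.40, 7.60, 8.27, 9.09 and 8.59 in the High lines, against 7.41, 7.24, 8.75, 10.25 and 11.30 in Low lines 1E7, 2D7, 2F1, 4D11 and 4H4. H2-M9, a related class I gene of the same cluster, measured 7.85, 7.92, 8.58, 9.18 and 8.28 in the High lines, against 7.46, 7.69, 9.02, 10.02 and 10.65 in the Low lines. Of the 10 lines 5 held the same rank for both genes, the top 4 among them, and no line differed by more than 2 ranks. Whether probes of one gene also bind the transcript of the other was not tested. H2-M10.5, the nearest measured gene on the other side, stayed between 5.26 and 5.82, below the limit on all arrays.

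Ppef1 had the clearest division into sets of several lines. It (Entrez gene 237178, probe set 10607602, chromosome X) measured 5.68, 5.61, 6.64, 5.52 and 9.06 in High lines 3F4, 4D2, 4E3, 5C4 and 5D4, against 9.57, 7.16, 9.80, 6.15 and 9.89 in Low lines 1E7, 2D7, 2F1, 4D11 and 4H4. High line 5D4 and Low lines 1E7, 2F1 and 4H4 lay at 9.06 or above, and the other 6 lines lay at or below 7.16. The gap of 1.90 is a 3.72-fold step and 43.3% of the range, and the same 4 lines were high by the midpoint of the range and by the array median. Both classes were found on both sides.

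Mid2 was high in 4 of the 5 Low lines and in none of the High lines. It (Entrez gene 23947, probe set 10602068, chromosome X) measured 6.08, 6.15, 6.17, 6.31 and 6.37 in the High lines, against 7.71, 9.46, 8.27, 9.13 and 6.38 in Low lines 1E7, 2D7, 2F1, 4D11 and 4H4. All 5 High lines lay below the detection limit of their arrays, and Low line 4H4 lay at the limit, beside the highest High line. The 4 high lines were themselves spread over 7.71 to 9.46, and 1E7, the lowest of them, dropped out by the midpoint of the range. Mid1, its close relative on the same chromosome, was bright in all lines, at 10.26 to 11.39.

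Gm773 was high in High lines 3F4 and 5C4 alone. It (Entrez gene 331416, probe set 10604674, chromosome X) measured 10.51, 6.48, 6.02, 9.30 and 6.64 in the High lines, against 6.30, 6.02, 5.63, 5.55 and 7.43 in the Low lines. The step from 5C4 down to the next line, Low line 4H4, was 1.87, or 3.66-fold, and the same 2 lines were high by the midpoint of the range and by the array median. The other 3 High lines lay among the Low lines. No other gene with a gap of at least 1 divided the lines in either direction as H2-M1, Ppef1, Mid2 or Gm773 did. For Dynap there was none in the same direction, while 4 genes were high in 3F4 alone, the opposite of Dynap.

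**Figure D3:**
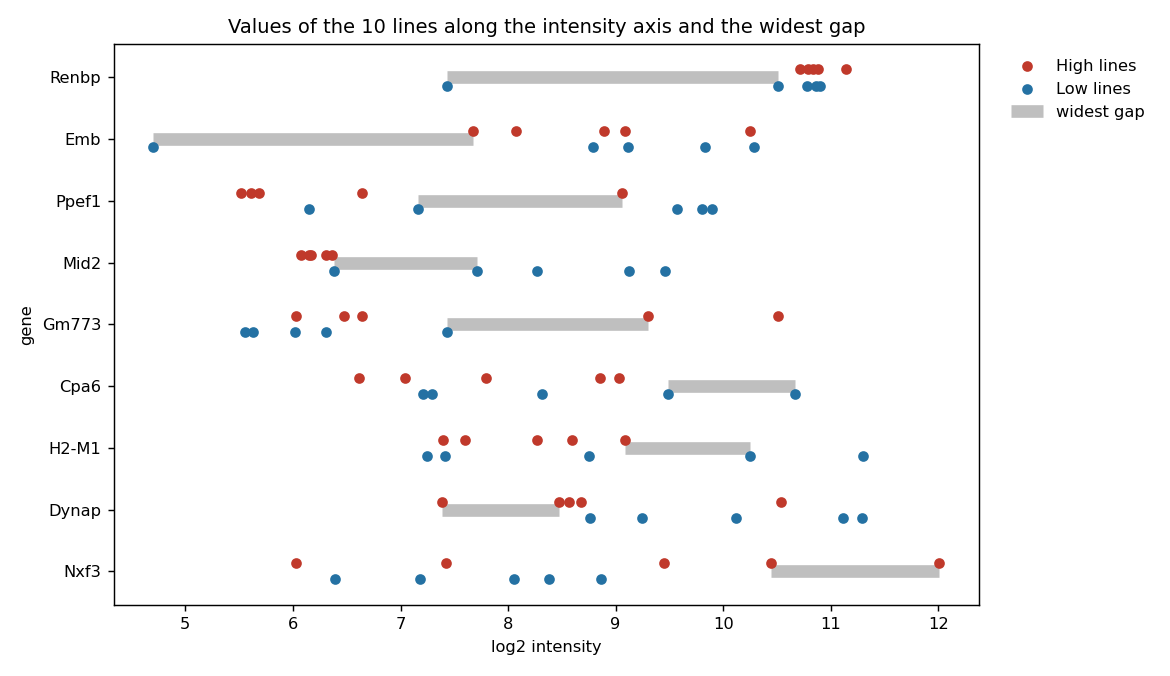
Values of the 10 lines for each gene along the log2 intensity axis (x axis), with genes on the y axis ordered by the share of the range that the widest gap covers. Red points are High lines, blue points Low lines, and the grey bar is the widest gap. The bar fills 83.1% of the range of Renbp and 26.1% of that of Nxf3.

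Ppef1 and Mid2 are both X-linked and were both high in lines 1E7 and 2F1, and their start regions differ in CG content. The Mid2 region is chrX:140664706-140665005 on the + strand and the Ppef1 region is chrX:160719923-160720222 on the - strand, each at the start of 1 annotated transcript and not at the outer end of the gene.
Mid2: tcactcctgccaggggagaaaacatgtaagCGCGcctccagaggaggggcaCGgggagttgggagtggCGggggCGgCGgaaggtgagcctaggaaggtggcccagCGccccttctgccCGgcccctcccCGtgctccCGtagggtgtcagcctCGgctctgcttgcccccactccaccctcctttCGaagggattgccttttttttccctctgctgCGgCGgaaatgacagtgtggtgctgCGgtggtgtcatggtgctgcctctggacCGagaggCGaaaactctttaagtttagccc
Ppef1: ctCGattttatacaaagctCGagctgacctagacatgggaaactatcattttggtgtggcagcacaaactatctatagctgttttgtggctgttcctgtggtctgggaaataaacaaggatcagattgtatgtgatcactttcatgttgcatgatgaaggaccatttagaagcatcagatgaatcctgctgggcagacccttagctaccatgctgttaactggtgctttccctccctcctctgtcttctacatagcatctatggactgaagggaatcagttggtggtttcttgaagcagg
The Mid2 region holds 17 CG pairs, a number reached by 31.4% of all start regions, and the Ppef1 region 2, reached by 85.9%. The region of Gm773 holds 8 pairs and that of H2-M1 holds 2. The 6 genes with a region in the table thus spanned 2 to 17 pairs, and the pair with the same pattern, Emb and Renbp, had 14 and 8. Regions of Dynap, Cpa6 and Nxf3 were not used here.

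Of the 9 genes 5 lie on chromosome X (Renbp, Nxf3, Ppef1, Mid2 and Gm773), where 3.10% of the genes tested lie. Among all 76 genes with a gap of at least 1, 11 lie on chromosome X, or 14.5%, and these include the 5. Xist, the RNA that coats an inactive X chromosome, was between 5.28 and 5.52, below the limit on all arrays. The 5 X-linked genes did not share a pattern: the smaller side was 2D7 for Renbp, 5D4 for Nxf3, 3F4 and 5C4 for Gm773, 5D4, 1E7, 2F1 and 4H4 for Ppef1, and 1E7, 2D7, 2F1 and 4D11 for Mid2. The median deviation of all X-linked genes from their 10-line medians lay between -0.04 and 0.08 in every line.

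The chromosomal neighbourhoods of the 9 genes, read as medians, shifted by at most 0.58, while single neighbours such as H2-M9 varied widely. For each gene the 10 nearest tested genes on each side were taken, and their median deviation from the 10-line median was read in each line. In the lines on the smaller side of the gap this deviation was -0.06 for Renbp in 2D7, -0.11 for Cpa6 in 2D7, -0.01 for Nxf3 in 5D4, -0.02 for Dynap in 3F4, 0.01 and -0.02 for H2-M1 in 4D11 and 4H4, and 0.11 and -0.01 for Gm773 in 3F4 and 5C4. For Emb in 2D7 it was -0.25, the lowest of the 10 lines, where Emb itself was 4.29 below its median. The next gene on one side of Emb, Parp8, measured 10.29 in 2D7 and 9.66 to 10.86 elsewhere. The next measured gene on the other side, Mrps30, was lowest in 2D7, at 8.80 against 8.90 to 9.39 elsewhere. For Mid2 it was 0.22 in 2D7 and at most 0.02 in either direction in the other 3 high lines.

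The widest shift of a neighbourhood was that of Ppef1 in High line 4D2, at -0.58. There Adgrg2 and Pir, with 1 and 13 tested genes between them and Ppef1, measured 6.12 and 6.77 in 4D2 against at least 8.52 and 9.06 in the other lines, and Phka2, the next gene on one side, was lowest in that line at 10.28 against 10.93 to 11.34 elsewhere. Ppef1 was as dim in 3F4 and 5C4, at 5.68 and 5.52, where its neighbours deviated by 0.10 and -0.01. Copy number was not measured, and the part of a regional change in these values was not tested. The nearest measured genes of Renbp, Arhgap4 and Hcfc1, lay at 7.21 to 7.55 and at 11.90 to 12.32. Those of Nxf3, Bex2 (5.47 to 5.78) and Bex4 (3.85 to 4.29), were below the limit on all arrays, where a change between lines cannot be read.

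**Figure D4:**
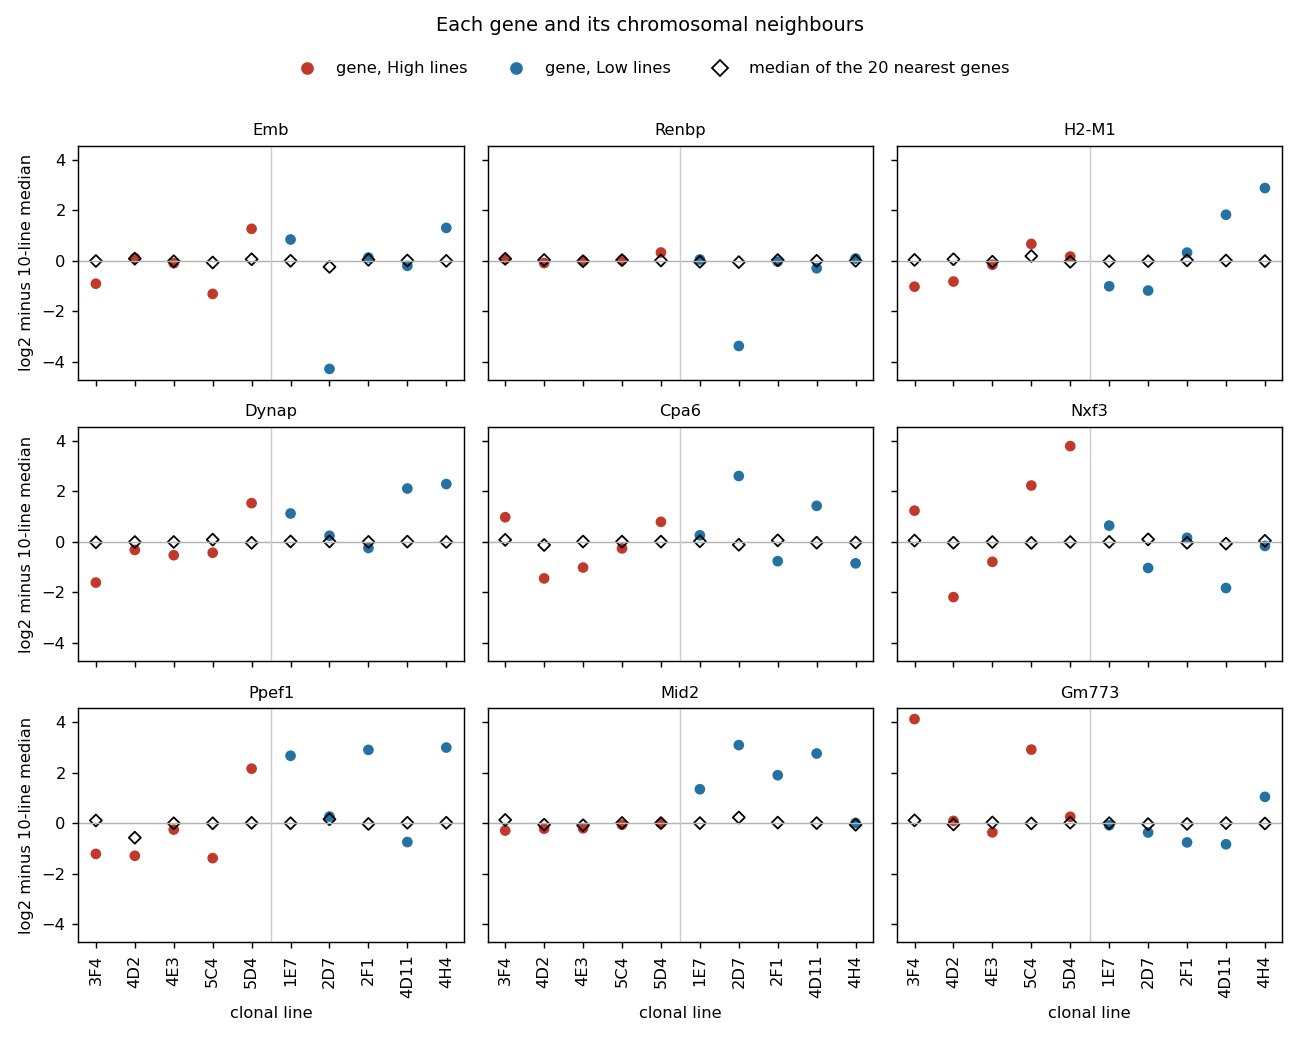
Each gene (filled points, red for High and blue for Low lines) and the median of its 20 nearest tested genes (open diamonds) in each clonal line (x axis), as the difference from the 10-line median (y axis, log2). The diamonds stay between -0.58 and 0.22, and the lowest is that of Ppef1 in 4D2.

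The next question was which lines shared a state over the whole set. Of the 45 pairs of lines 2 had the same state for all 9 genes, High lines 4D2 with 4E3 and Low lines 1E7 with 2F1, each a pair within 1 class. Lines 4D2 and 4E3 were also the second closest pair by the distance over all other genes tested, while 1E7 and 2F1 ranked 10 of 45. These matches depended on the state rule and on single lines. Lines 1E7 and 2F1 shared 7 states by the midpoint of the range, 6 by the array median, 8 without High line 3F4 and 7 without Low line 2D7, and 4D2 and 4E3 shared 9 by the midpoint and 8 by the array median. Line 2D7 shared the fewest states, 3 to 5 with each other line. It stood alone for Emb, Renbp and Cpa6, so by construction it shared none of these 3 states with any line. The fewest shared by any pair were 3, by 2D7 with High lines 3F4 and 5D4 and with Low line 4H4. Among pairs of High lines the median was 7 shared states (5 to 9), among pairs of Low lines 7 (3 to 9), and between classes 6 (3 to 7). These counts take a state as all or none, so they count the graded genes Cpa6, Dynap and Nxf3 as strongly as Renbp. Any pair without 2D7, 3F4 and 5D4 shares the states of Emb, Renbp, Dynap, Cpa6 and Nxf3 by construction. The count of such a pair, the 2 pairs with all 9 included, can differ only through H2-M1, Ppef1, Mid2 and Gm773.

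**Figure D5:**
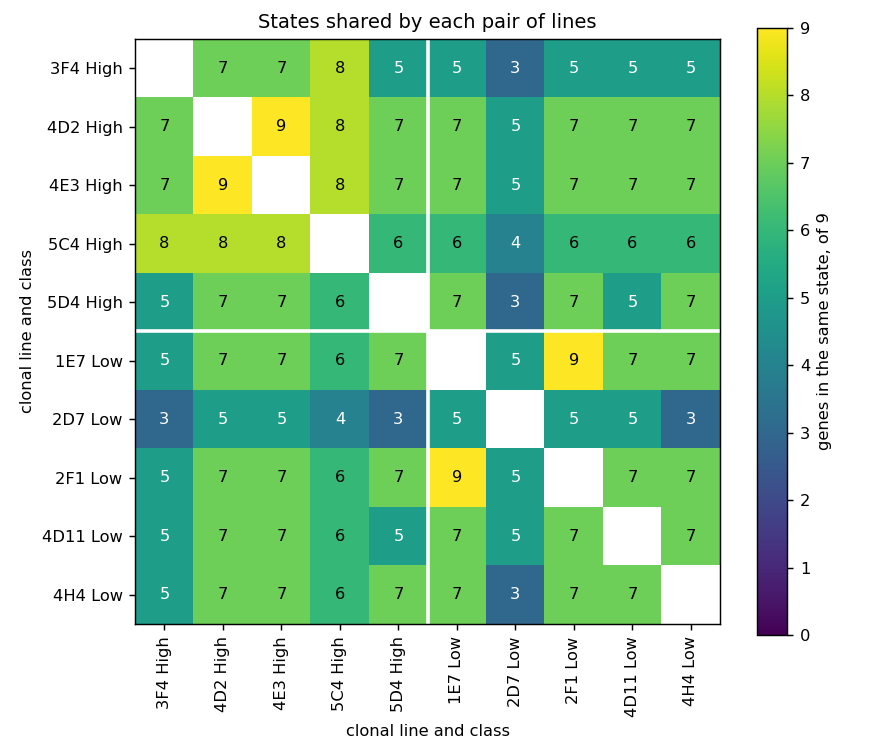
Number of the 9 genes in the same state (colour and digits) for each pair of the 10 lines, High lines first on both axes and separated from Low lines by white bars. The pairs 4D2 with 4E3 and 1E7 with 2F1 share 9 states, and the row of 2D7 holds 3 to 5.

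Agreement with the High and Low classes was compared in 2 ways. By states, a split of the lines can match the classes in at most 10 lines, and a split with 1 line apart matches in 6 by construction. A split with 2 lines apart can match in 7 at most, one with 4 lines apart in 9 at most, and only an even split in 10. The counts of genes with unlike splits are thus not on the same scale. Mid2 matched in 9 lines, H2-M1, Ppef1 and Gm773 in 7, and the other 5 genes in 6, and of all 76 genes with a gap of at least 1, 4 matched in 9 lines and 0 in 10. In the limma fit across all 16863 genes, 0 of the 9 passed at an adjusted p under 0.05, where 0.00593% of genes passed. At an unadjusted p under 0.05 there were 3 of the 9 (Mid2, Ppef1 and Dynap, all lower in High lines), where 7.8% of all genes passed and 4.66% of all genes passed while lower in High lines. The members were chosen for wide differences between these same lines, so these counts describe the set and support nothing beyond it.

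Mid2 averaged 6.21 ± 0.12 in High lines and 8.19 ± 1.23 in Low lines (SD, n = 5 each), and High minus Low was -1.98 (limma adjusted p = 0.285). All 5 High lines were under the detection limit, so Mid2 was tested through its Low lines alone, and with the limit in place of lower values the High mean was at least 3.39-fold lower. As Mid2 was chosen for differences between these lines, its class values are a description. It was the 1 gene of the 9 whose classes did not overlap, where 1.54% of all genes did not and 1.01% did not while lower in High lines, and the margin was 6.38 in 4H4 against 6.37 in 5D4. That margin lay at the limit. With the limit in place of lower values the High lines stood at 6.40 to 6.47 and 4H4 stayed at 6.38, so the classes then overlapped. With Low line 4H4 left out, High minus Low became -2.43 (limma adjusted p = 0.0319), and over all alternatives tried the adjusted p ran from 0.0319 to 0.99998. Ppef1 averaged 6.50 ± 1.499 in High and 8.52 ± 1.74 in Low lines (SD, n = 5 each), and High minus Low was -2.01 (95% confidence interval -3.84 to -0.19, limma adjusted p = 0.595). It was under the limit in 4 lines, 3 of them High, and with the limit in place of lower values the difference was -1.56. Dynap averaged 8.73 ± 1.13 in High and 10.105 ± 1.12 in Low lines (SD, n = 5 each), a difference of -1.38 (limma adjusted p = 0.605).

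Gm773 averaged 7.79 ± 1.99 in High and 6.19 ± 0.76 in Low lines (SD, n = 5 each), and High minus Low was 1.60 (95% confidence interval -0.09 to 3.30, limma adjusted p = 0.661). Nxf3 averaged 9.07 ± 2.38 in High and 7.77 ± 0.99 in Low lines (SD, n = 5 each), a difference of 1.30 (limma adjusted p = 0.783). When lines were blocked by the digit that opens the clone name, a fit in which the difference rests on the 4 lines whose names start with 4, the sign turned for Gm773 (-0.24), Nxf3 (-0.49) and Emb (-0.55). H2-M1 differed by -0.80, Cpa6 by -0.73, Renbp by 0.78 and Emb by 0.25, with limma adjusted p from 0.782 to 0.946. These differences moved when single lines were left out. That of H2-M1 was -0.22 without Low line 4H4 and -2.84 with the block, that of Cpa6 -0.21 without Low line 2D7 and -1.52 with the block, that of Nxf3 0.57 without High line 5D4, and that of Gm773 0.93 without High line 3F4. Without Low line 2D7 the difference was 0.11 for Renbp, which was 0.05 with the block, and -0.71 for Emb, and without High line 5D4 that of Emb was -0.11. With 2D7 set to the detection limit the difference of Emb was -0.09. Dynap differed by -2.63 with the block.

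Relatives and partners of the 9 genes, together with silencing factors, were read in the same way. Of 165 genes on 11 lists 153 were measured and 129 tested, 0 passed between High and Low lines in limma at an adjusted p under 0.05, 7 had an unadjusted p under 0.05 (5.43%, against 7.8% of all genes, 6 higher and 1 lower in High lines), and 0 had a gap of at least 1, against 0.451% of all genes. With 129 genes a share of 0 is close to that. Their median difference was 0.03, where that of all genes tested was 0.02. Their median range was 0.43, and the widest range was that of H2-M9, at 3.19. Among embigin relatives and monocarboxylate transporters, Bsg, which encodes the related escort basigin, lay between 12.96 and 13.05, and the transporter gene Slc16a1 between 10.61 and 11.29. Another transporter gene of this list, Slc16a7, lay between 5.82 and 6.17, below the limit on all arrays. Among genes of amino sugar and sialic acid metabolism the widest gap was 0.44 (Amdhd2), and among metallocarboxypeptidases it was 0.81 (Cpm).

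Among mRNA export factors the widest gap was 0.26 (Thoc1), among phosphatases of the PPP family and calmodulins 0.38 (Ppp3cc), among relatives and partners of Mid2 it was 0.50 (Fsd1), and among dynactin subunits 0.18 (Dctn1). The 31 tested factors of DNA methylation and heterochromatin had gaps of at most 0.39, with 9 positive and 22 negative differences and a median of -0.04. Of 22 measured germline genes known to be silenced by DNA methylation 13 were tested, with gaps of at most 0.44, 12 positive differences, 1 negative and a median of 0.05. The median over all genes tested was also positive, at 0.02. Positive and negative differences numbered 5 and 0 for epithelial markers, 4 and 0 for endothelial, 4 and 0 for muscle, 3 and 0 for adipocyte, 3 and 1 for neural, and 3 and 2 for leukocyte markers. The signs were not tested and are not read as a result about these lists.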

How the data were processed

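RNA of 10 clonal lines was measured on Affymetrix whole-transcript arrays. The authors deposited log2 intensities, 1 value per probe set and array, and RMA is named without a version per the submitters' processing notes. RMA makes the distributions of arrays alike, which removes any shift common to most genes, and it compresses differences near background. The table held 34760 probe sets, of which the platform annotation gave 21640 a single symbol. The brightest probe set per gene was kept, and each of the 9 genes had 1. A gene was tested when it exceeded its array's 25th percentile on at least 1 array. That limit keeps a gene on in a single line. Genes were placed on chromosomes through the RefSeq table of GRCm38.p6. No build is named for the arrays, so coordinates are printed for RefSeq start regions alone.

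The class comparison (High minus Low) used lmFit and eBayes of limma 3.58.1 under R 4.3.3, two-sided, with Benjamini-Hochberg adjustment over all genes tested, and the fit and the gap rule were tested on simulated data. The simulated states for the gap rule lay far apart with little spread. That test therefore does not cover graded genes such as Cpa6, Dynap and Nxf3. Gaps, states and neighbours were computed in Python 3.11.15 with numpy 2.4.6 and pandas 2.3.3, with matplotlib 3.10.9 for plots. The members, the lists, the gap rule and the detection limit were chosen with earlier results of these data known. Besides the 9 genes the text names, by rule, the 3 genes with the widest gaps among those that divided the lines alike, predicted transcripts skipped. List members with a gap of at least 1 were to be named too, and none were found. The nearest measured gene on each side of a member was also taken by rule, but not all of these are named, and those of Cpa6 and Dynap are not. Other list members and markers, chosen after their values were seen, are named as examples or for the widest gap of a list. The precision is limited by the number of lines, each with 1 array. Alternatives covered the filter, normalization, probe sets, variance models, array weights, a block, the state rule, the number of neighbours, leaving out each line and, chosen after seeing the data, a floor at the detection limit.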

Additional observations from a re-analysis of the deposited data

Results flagged for a closer look

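The values of the 5 High and the 5 Low lines were searched for a line far from the other 4 of its class, over the 9 genes and 26 other genes taken by rule. Of 70 sets of 5 values 12 had such a line, and of the 18 sets of the 9 genes 2 did. Chance alone marks about 1 set in 20, but the 9 genes were picked for differences between lines and several others for sharing a lone line with them, so these counts cannot be read against that share.

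Low line 2D7 stood apart from the other Low lines for Emb, at 4.70 against 8.79 to 10.29, and for Renbp, at 7.44 against 10.51 to 10.90. The same line stood apart for Grb10, at 6.75 against 12.08 to 12.28, for Pcdhb9, at 8.34 against 6.27 to 6.71, for Parp8, the neighbour of Emb, at 10.29 against 10.74 to 10.86, and for Gm35586, a predicted neighbour of Gm773, at 5.94 against 5.73 to 5.79. High line 5D4 stood apart from the other High lines for Ildr2, at 9.93 against 7.45 to 7.74, for Cd200, at 8.41 against 6.35 to 6.72, and for Rtp4, at 9.32 against 7.22 to 7.55. High line 4D2 stood apart for Parp8, at 9.66 against 10.43 to 10.66, High line 3F4 for Tsc22d3, a neighbour of Mid2, at 9.13 against 8.61 to 8.75, and Low line 4H4 for Tex13b, the other neighbour of Mid2, at 5.22 against 5.40 to 5.47. Gm35586 and Tex13b lay below the detection limit on all arrays.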

How the results depend on the processing

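The states of all 9 genes were the same with quantile normalization repeated, with arrays centred on their medians and, an alternative chosen after seeing the data, with values under the detection limit set to it. With the midpoint of the range as the rule 5 of 9 genes kept every line's state (Emb, Renbp, H2-M1, Ppef1 and Gm773), and with the array median as the threshold 4 did (Renbp, Dynap, Ppef1 and Gm773). With 1 line left out 5 to 9 kept their states, the fewest without Low line 2D7, where the widest gap became 0.71 for Emb and 0.24 for Renbp. In the class comparison limma called 1 gene at an adjusted p under 0.05, 2 with arrays centred on their medians, 3 with array weights, 0 with lines blocked by the opening digit of the clone name, and 1 to 18 with 1 line left out. It was 18 without High line 5D4 and 2 without Low line 2F1 or Low line 4H4. The difference for Emb ran from -0.71 to 0.69 with 1 line left out and was -0.55 with the block, where Nxf3 was at -0.49 and Gm773 at -0.24. The cause of these changes was not tested. For the other 6 genes no fitted alternative turned the sign of the difference, and none of the 9 passed under any alternative except Mid2 without Low line 4H4. Line 4H4 was the 1 Low line in which Mid2 was low, so leaving it out widened the difference by construction. Mid2 was also chosen from these values, so this pass is a description. With 25 neighbours on each side the shift was -0.18 around Emb in 2D7 and -0.59 around Ppef1 in 4D2. With 5 neighbours on each side these shifts were -0.25 and -0.62. With the array median as the filter, Ppef1, Mid2 and Gm773 were not tested. The mean of probe sets changed no value of the 9, which have 1 probe set each. No paired analysis was possible because the lines are separate clones, numbered here for naming alone, and the labels give nothing that pairs a High with a Low line. Signal over background limits Mid2, Ppef1, Gm773, Nxf3 and Emb, which fell below the detection limit in 1 or more lines, where RMA compresses differences. The lowest values of Renbp (7.44), Dynap (7.39), H2-M1 (7.24) and Cpa6 (6.61) lay above the limit. They were within the mean levels of the marker lists of other cell types (6.54 to 7.72), so background may limit these genes too.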

Other observations

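Besides the 5 X-linked genes of the set, 6 others had a gap of at least 1, and all are named here after their values were seen. High line 4D2 was alone in being low for Adgrg2, at 6.12 against 8.52 to 9.50 in the other lines, and for Pir, at 6.77 against 9.06 to 9.81. In the order of tested genes 1 gene lies between Adgrg2 and Ppef1 and 13 lie between Pir and Ppef1. The same line was alone in being high for Stard8, at 8.96 against 6.996 to 7.58. Rnf128 was low in 3F4, 4D2 and 5C4, Hs6st2 in 2D7 and Xlr in 4D11.

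The 4 genes that were high in 3F4 alone, the line lowest for Dynap, were Brinp3, Gca, Serpinb1a and Parm1, with gaps of 2.91, 1.85, 1.54 and 1.005, also named after their values were seen. None of them lies on chromosome 18.

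Among the genes with a lone line 2D7, Ndn and Peg3, both imprinted like Grb10, were also found, and they too are named after their values were seen. Ndn measured 10.74 in 2D7 and 11.91 to 12.33 in the other lines, and Peg3 measured 10.52 in 2D7 and 8.30 to 9.31 in the others. Among the genes that were high in 5D4 alone with Nxf3 were the interferon-induced genes Usp18, at 9.84 against 7.32 to 8.54 in the other lines, and Ifit1, at 9.42 against 6.87 to 8.30.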
